A study of Mus musculus with 8 samples.

Results

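The 8 genes described here encode the LIF receptor chain Lifr, its partner gp130 (Il6st), the kinase Jak1, the transcription factor Stat3, the feedback inhibitor Socs3 and 3 genes switched on by STAT3 in mouse embryonic stem (ES) cells, Pim1, Gbx2 and Bcl3. They were chosen by name from knowledge of the pathway, with earlier results of these data known. All 8 are among the 55291 genes in the count tables and among the 16371 genes that passed the expression filter. Leukaemia inhibitory factor (LIF) binds LIFR, which pairs with gp130, and JAK kinases bound to the receptor tails phosphorylate STAT3. Phosphorylated STAT3 enters the nucleus and activates genes that keep mouse ES cells undifferentiated, among them the gene of its own inhibitor SOCS3. RNA levels report how much transcript of these genes was present and do not measure phosphorylation of STAT3.

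RNA was sequenced from 8 libraries of ES cells, 2 from each of 4 groups. The cell lines are called DHX35-dTAG and GPATCH1-dTAG after the protein that carries a degron tag, through which the compound dTAG-13 directs it to degradation. Each line received either the solvent DMSO or 200 nM dTAG-13 for 4 h, and the comparisons ask how the pathway genes responded to loss of either protein and how their levels differed between the lines. The growth protocol puts all cells in serum medium with LIF, the MEK inhibitor PD0325901 and the GSK3 inhibitor CHIR99021, so no group lacked LIF and the libraries do not show a response to its withdrawal. The labels call the cells E14 whereas the growth protocol names R1. Edited cells were expanded from single colonies, and the labels leave the clone unnamed, so a difference between the lines cannot be told apart from a difference between clones. No library of untagged cells was analysed here. The labels do not say whether the 2 libraries of a group came from separate cultures, so p-values measure only the spread between these samples, which may be technical. In such bulk RNA, fewer cells with a transcript and less of it per cell cannot be told apart.

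Total counts were 12765765 and 14173639 in DHX35-dTAG cells in DMSO and 12014203 and 13197149 in dTAG-13. They were 14663300 and 13353642 in GPATCH1-dTAG cells in DMSO and 14994173 and 13149257 in dTAG-13. The lowest count of any of the 8 genes in any library was 595. The first DMSO replicate of the DHX35-dTAG line stood apart, with a mean correlation of 0.976 with the other libraries, against 0.988 to 0.990 for the rest. Mitochondrial genes held 0.893% of its counts, against 1.27% to 1.88% in the others. Several results below are therefore also given without this library. Without it, its group holds 1 library, which is assumed to vary like the other groups. The 2 most counted genes took 3.15% and 1.54% of counts in DHX35-dTAG cells in DMSO and 12% and 20.2% in dTAG-13, and in the GPATCH1-dTAG line 4.23% and 20.9% in DMSO and 1.27% and 2.02% in dTAG-13. This share was thus higher in dTAG-13 in the DHX35-dTAG line and lower in dTAG-13 in the GPATCH1-dTAG line, without overlap in either. Removing both genes before scaling is 1 of the alternatives, and other changes in the RNA of these libraries were not tested.

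The ES cell label was checked against marker genes. All 10 ES cell markers passed the expression filter, with Tfcp2l1 the most abundant at 1653 CPM (counts scaled to library size by edgeR with TMM factors). Together they reached 5430, 5586, 5709 and 5585 CPM in the DHX35-dTAG line (DMSO, then dTAG-13) and 5379, 5350, 5422 and 5420 CPM in the other, so that the lines did not overlap. Of all single genes tested, 11.6% did not overlap between the lines. Across treatments 0 of the 10 passed an adjusted p of 0.05 in edgeR, while 3 were lower in GPATCH1-dTAG cells and 0 higher at an unadjusted p under 0.05. In this comparison 15.3% of all genes had an unadjusted p under 0.05, 1055 of the 16371 with a higher and 1454 with a lower level. Markers of fibroblasts, which can be present as feeder cells, summed to 5.76 CPM in the library that stood apart and to 2.56 to 3.63 CPM in the others. They were led by Thy1 at 2.12 CPM, and 2 of the 6 had no count in any library. The 2 that were tested were lower in GPATCH1-dTAG cells, with a median log2 difference of -0.36, or -0.13 without the library that stood apart. Of these, 0 passed an adjusted p of 0.05 in edgeR, while 1 had an unadjusted p under 0.05, against 15.3% of all genes. Markers of primitive endoderm, led by Dab2 at 1.95 CPM, summed to 5.39, 6.11, 7.27 and 6.10 CPM in the DHX35-dTAG line (DMSO, then dTAG-13) and to 7.12, 8.40, 7.81 and 9.0 CPM in the other. All 4 that were tested were higher in GPATCH1-dTAG cells, with a median log2 difference of 0.40, and 0 passed an adjusted p of 0.05 in edgeR. An unadjusted p under 0.05 was found for 2 of the 4, against 15.3% of all genes in either direction. Those of mesoderm summed to 31.6 to 41.1 CPM, led by Eomes at 19.2 CPM. Between the lines across treatments, 0 of the 4 tested passed the adjusted threshold in edgeR. At an unadjusted p under 0.05, 1 was higher in GPATCH1-dTAG cells, as were 1055 of all 16371 genes. The 4 neural markers summed to 78.5 to 89.8 CPM, of which Tubb3 held 76.6 CPM, and the 4 formative and primed markers to 228 to 261 CPM, of which Dnmt3b held 237 CPM. Of the 3 neural markers tested, 1 was likewise higher in GPATCH1-dTAG cells at the unadjusted threshold and 0 passed. On dTAG-13 in DHX35-dTAG cells, 1 of the 3 formative markers tested was higher and 2 were lower. The 1 was Otx2, named because it was the higher 1, at 0.77 (0.13 to 1.42), which did not pass (adjusted p = 0.71, edgeR). Its treatments did not overlap, as for 28.7% of all genes tested. The median of the 3 was -0.05, or 0.03 without the library that stood apart. The 5 markers of 2-cell-like cells, led by Zscan4d at 2.30 CPM, summed to 3.40 and 5.21 CPM in DMSO and 7.10 and 6.63 CPM in dTAG-13 in DHX35-dTAG cells, without overlap, and to 4.85 and 5.66 CPM and 4.52 and 4.18 CPM in GPATCH1-dTAG cells. On dTAG-13 in DHX35-dTAG cells the 3 that were tested had a median log2 difference of 0.76, or 0.37 without the library that stood apart. In edgeR 0 passed the adjusted threshold while 1 had an unadjusted p under 0.05, as had 397 of the 16371 genes with a higher and 485 with a lower level. Of the 4 trophoblast markers, led by Krt8 at 29.1 CPM, the sum was 22.9 to 34.7 CPM in the DHX35-dTAG line and 39.2 to 43.4 CPM in the GPATCH1-dTAG line. Krt8, chosen after seeing the data, was the 1 of these markers past the test, with a log2 difference of 0.62 (0.37 to 0.88) across treatments, higher in all 4 libraries of GPATCH1-dTAG cells (adjusted p = 0.043, edgeR, and 1.2e-07 to 0.18 over the alternatives), where 0.788% of all genes passed. It missed the threshold when any 1 library other than the DMSO libraries of the DHX35-dTAG line was left out (adjusted p of 0.13 to 0.18, edgeR). In GPATCH1-dTAG cells 41.8% of all genes tested did not overlap between treatments. There the sums of ES cell, formative and trophoblast markers were higher in both dTAG-13 libraries than in both DMSO libraries. Those of mesoderm and 2-cell-like markers were lower in both. Sums follow their most abundant genes, and the single markers were mixed in 2 of these lists. Of the 3 formative markers tested, 1 was higher and 2 were lower, with a median log2 difference of -0.23. Of the 10 ES cell markers, 6 were higher and 4 lower, with a median of 0.0027. The part of any of these transcripts in the differences below was not tested.

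The transcripts of the tagged proteins were read first. Dhx35 had 72.3, 80.4, 84.8 and 79.5 CPM in DHX35-dTAG cells (DMSO, then dTAG-13) and 58.1, 58.4, 59.3 and 64.9 CPM in GPATCH1-dTAG cells. Gpatch1 had 25.6, 23.4, 23.2 and 23.7 CPM in DHX35-dTAG cells and 7.31, 6.90, 7.06 and 7.20 CPM in GPATCH1-dTAG cells. Each transcript was lower in GPATCH1-dTAG cells in all 4 libraries, by a log2 difference of -0.40 for Dhx35 (adjusted p = 0.021) and -1.75 for Gpatch1 (adjusted p = 6.5e-06, quasi-likelihood F test of edgeR, adjusted by Benjamini-Hochberg). In fits that left out 1 library, Dhx35 passed without either DMSO library of DHX35-dTAG cells and missed the threshold without any 1 of the other 6 (adjusted p of 0.073 to 0.14, edgeR), while Gpatch1 passed in all 8. Neither transcript passed that test for dTAG-13 in its own line, and dTAG-13 acts on the protein, which was not measured in these libraries.

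None of the 8 genes passed an adjusted p of 0.05 for dTAG-13 in either line. In DHX35-dTAG cells 0 of 8 genes passed, as did 0% of the 16371 genes tested, while 397 of all genes had an unadjusted p under 0.05 with a higher and 485 with a lower level. DESeq2 called 1 gene and limma-voom with quality weights called 0 in that comparison, none of them among the 8. In GPATCH1-dTAG cells 0 of 8 passed, against 0% of all genes, with 145 higher and 341 lower at the unadjusted threshold. There DESeq2 called 0 genes and limma-voom 35, again none of the 8. The gap between the 2 lines' responses passed for 0 of 8 genes and 0% of all genes, with 283 and 357 genes at the unadjusted threshold, and DESeq2 called 9. None of the 8 genes reached an unadjusted p of 0.05 in these 3 comparisons. The median log2 difference of the 8 genes was 0.09 in the DHX35-dTAG line and 0.03 in the GPATCH1-dTAG line, against -0.01 and 0.00 over all genes tested. Without the library that stood apart the first median was 0.02. A p that misses the threshold does not show that a level did not differ, so intervals are given for each gene.

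**Figure D1:**
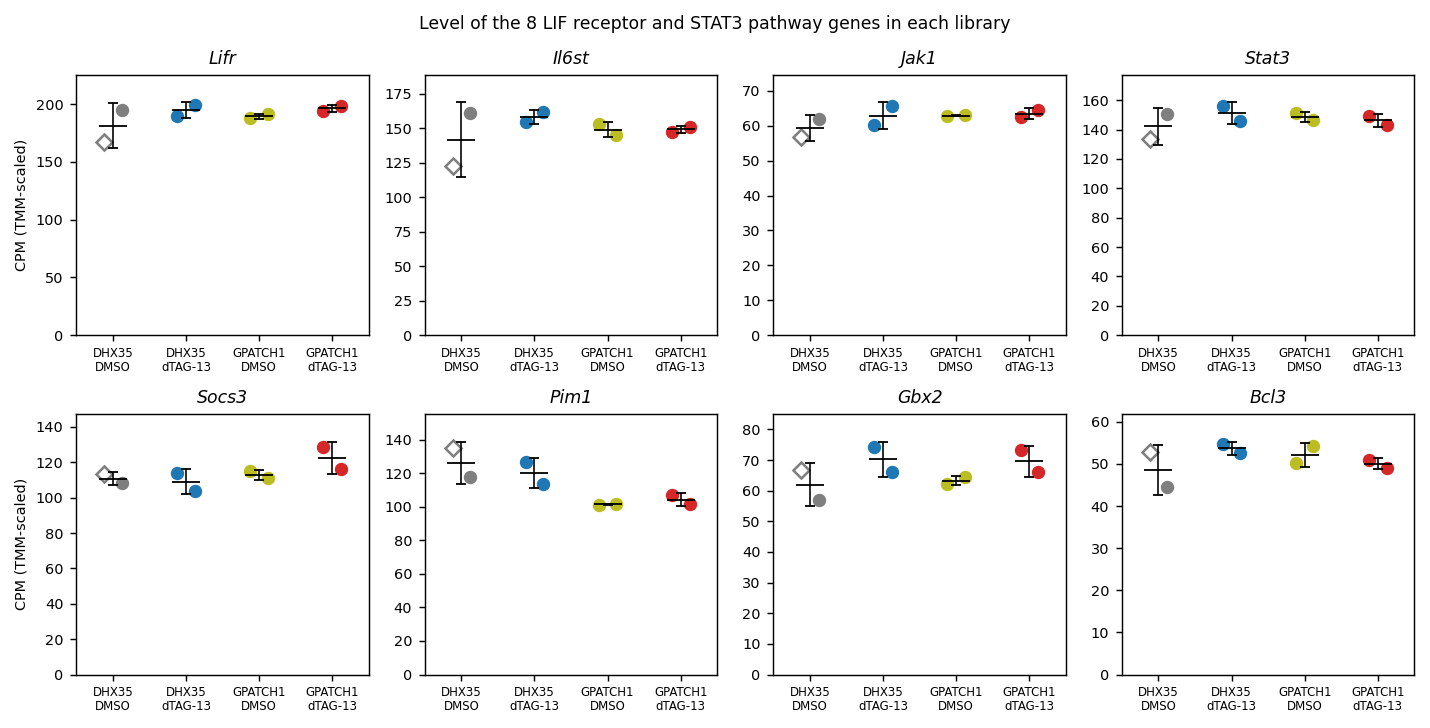
Level of each of the 8 genes in CPM (vertical axis, from 0) in the 4 groups, with 1 point per library, the mean as a bar and the SD (n = 2) as whiskers; the open diamond is the library that stood apart. That library is the lowest for Lifr, Il6st, Jak1 and Stat3, and the 4 libraries of GPATCH1-dTAG cells lie below the 4 of DHX35-dTAG cells for Pim1.

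Lifr (ENSMUSG00000054263.12, chromosome 15 of GRCm38, 7090614 to 7197489, plus strand) encodes the chain that binds LIF. In DHX35-dTAG cells it had 168 and 195 CPM in DMSO and 189.8 and 199.5 CPM in dTAG-13. In GPATCH1-dTAG cells it had 188 and 191 CPM in DMSO and 194 and 199 CPM in dTAG-13. The 168 CPM of the library that stood apart was the lowest value, and the other 7 libraries differed by at most 1.06-fold. The treatments overlapped in DHX35-dTAG cells and did not in GPATCH1-dTAG cells, where both dTAG-13 libraries were higher. The log2 difference on dTAG-13 was 0.10 in DHX35-dTAG cells (95% interval -0.11 to 0.31) and 0.05 in GPATCH1-dTAG cells (-0.15 to 0.26). The first of these fell to -0.0028 (-0.15 to 0.15) without the library that stood apart.

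Il6st (ENSMUSG00000021756.12, chromosome 13, 112464070 to 112510086, plus strand) encodes gp130, the signalling chain shared by receptors of the interleukin-6 family. Its levels in DHX35-dTAG cells were 123 and 161 CPM in DMSO and 154 and 161 CPM in dTAG-13. In GPATCH1-dTAG cells they were 153 and 145 CPM in DMSO and 147 and 151 CPM in dTAG-13. The library that stood apart again held the lowest value, the treatments overlapped in both lines, and without that library the highest level was 1.11-fold the lowest. The response to dTAG-13 in DHX35-dTAG cells was 0.16 on the log2 scale (-0.12 to 0.43) with all libraries and -0.02 (-0.17 to 0.12) with 7. It was 0.00041 (-0.27 to 0.27) in GPATCH1-dTAG cells. Across treatments, Il6st differed between the lines by -0.0049 (-0.19 to 0.18) with 8 libraries and by -0.09 (-0.18 to -0.0010) with 7, which did not pass the test (adjusted p = 0.24, edgeR).

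Jak1 (ENSMUSG00000028530.14, chromosome 4, 101152367 to 101265282, minus strand) encodes a kinase that binds the tail of gp130. It had 56.8 and 61.9 CPM in DMSO and 60.1 and 65.5 CPM in dTAG-13 in DHX35-dTAG cells. In GPATCH1-dTAG cells the levels were 62.9 and 62.9 CPM in DMSO and 62.5 and 64.5 CPM in dTAG-13. The treatments overlapped in both lines. The dTAG-13 response was 0.08 (-0.12 to 0.29) in DHX35-dTAG cells, 0.02 without the library that stood apart, and 0.01 (-0.19 to 0.22) in GPATCH1-dTAG cells.

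Stat3 (ENSMUSG00000004040.16, chromosome 11, 100885098 to 100939540, minus strand) encodes the transcription factor that carries the LIF signal to the nucleus. In DHX35-dTAG cells it had 133 and 151 CPM in DMSO and 156 and 146 CPM in dTAG-13. In GPATCH1-dTAG cells it had 151 and 146 CPM in DMSO and 149 and 143 CPM in dTAG-13. Groups overlapped between treatments in both lines, and the lowest value was again that of the library that stood apart. Its dTAG-13 response was 0.09 (-0.11 to 0.29) in DHX35-dTAG cells, 0.0044 without that library, and -0.02 (-0.23 to 0.18) in GPATCH1-dTAG cells. The line difference across treatments was 0.0087 (-0.13 to 0.15) with 8 libraries and -0.04 with 7.

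Socs3 (ENSMUSG00000053113.3, chromosome 11, 117966079 to 117970047, minus strand) encodes an inhibitor that binds gp130 and JAK kinases and shuts the signal down. Its levels in DHX35-dTAG cells were 113 and 108 CPM in DMSO and 114 and 104 CPM in dTAG-13. In GPATCH1-dTAG cells they were 115 and 111 CPM in DMSO and 129 and 116 CPM in dTAG-13. The treatments overlapped in DHX35-dTAG cells, while in GPATCH1-dTAG cells both dTAG-13 libraries were higher than both DMSO libraries. The log2 response was -0.02 (-0.23 to 0.19) in the DHX35-dTAG line and 0.12 (-0.09 to 0.32) in GPATCH1-dTAG cells, and the difference between the responses was 0.14 (-0.15 to 0.43). That difference ranged from 0.05 to 0.21 when 1 library was left out. Across treatments Socs3 was higher in GPATCH1-dTAG cells by 0.10 (-0.04 to 0.24), or by 0.13 (0.02 to 0.24) with 7 libraries, where it did not pass the test (adjusted p = 0.18, edgeR).

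Pim1 (ENSMUSG00000024014.8, chromosome 17, 29490753 to 29496112, plus strand), a serine/threonine kinase gene induced by STAT3, showed the clearest difference between the lines among the 8. In DHX35-dTAG cells it had 135 and 117.5 CPM in DMSO and 126 and 114 CPM in dTAG-13. In GPATCH1-dTAG cells it had 101 and 102 CPM in DMSO and 107 and 102 CPM in dTAG-13. All 4 libraries of GPATCH1-dTAG cells were below all 4 of DHX35-dTAG cells, with means of 103 ± 2.66 and 123 ± 9.61 CPM (SD, n = 4). The lines did not overlap for 1 of the 8 genes, against 11.6% of all genes tested. This separation depends on the scaling, since per total counts without TMM factors Pim1 had 97.3 CPM in the second dTAG-13 library of DHX35-dTAG cells and 86.2 to 115 CPM in GPATCH1-dTAG cells. With the 2 most counted genes taken out of the totals, a scaling chosen after seeing the data, the lines did not overlap, at 122 to 148 CPM in DHX35-dTAG cells and 109 to 117 CPM in GPATCH1-dTAG cells. The log2 difference across treatments was -0.26 (-0.41 to -0.11), with an unadjusted p under 0.05 in edgeR, as had 15.3% of all genes, and an adjusted p of 0.13 (edgeR), so that Pim1 did not pass. It was -0.31 (-0.53 to -0.09; adjusted p = 0.34, edgeR) in DMSO, where 12.9% of all genes had an unadjusted p under 0.05, and -0.20 (-0.42 to 0.02; adjusted p = 0.63, edgeR) in dTAG-13. When 1 library was left out, these ranged from -0.40 to -0.21 in DMSO and from -0.28 to -0.12 in dTAG-13.

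Pim1 passed in some of the alternatives. Without the library that stood apart, the line difference across treatments was smaller, -0.21 (-0.31 to -0.10), and had an adjusted p of 0.017 (edgeR). In that fit 5.95% of all genes passed, against 0.788% with 8 libraries. With limma-voom and quality weights, in which a library that varies more counts less, Pim1 differed by -0.21 with an adjusted p of 0.023 (limma), and 4.62% of all genes passed. Over all alternatives the difference stayed between -0.30 and -0.21 and its adjusted p lay between 0.017 and 0.39. dTAG-13 gave -0.07 (-0.29 to 0.15) in DHX35-dTAG cells, 0.03 without the library that stood apart, and 0.04 (-0.18 to 0.26) in GPATCH1-dTAG cells for Pim1.

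Gbx2 (ENSMUSG00000034486.8, chromosome 1, 89927956 to 89931179, minus strand) encodes a homeobox factor that acts downstream of LIF and STAT3. It had 66.9 and 56.9 CPM in DMSO and 74.3 and 66.2 CPM in dTAG-13 in DHX35-dTAG cells. In GPATCH1-dTAG cells it had 62.2 and 64.4 CPM in DMSO and 73.2 and 66.0 CPM in dTAG-13. The treatments overlapped in DHX35-dTAG cells and did not in GPATCH1-dTAG cells. Its log2 response was 0.18 (-0.07 to 0.43) in the DHX35-dTAG line and 0.14 (-0.11 to 0.39) in GPATCH1-dTAG cells. Without the library that stood apart the first was 0.30 (0.11 to 0.50) and did not pass the test (adjusted p = 0.90, edgeR).

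Bcl3 (ENSMUSG00000053175.17, chromosome 7, 19808462 to 19822770, minus strand) encodes a nuclear member of the IκB family. In DHX35-dTAG cells it had 52.8 and 44.4 CPM in DMSO and 54.8 and 52.6 CPM in dTAG-13. In GPATCH1-dTAG cells it had 50.2 and 54.2 CPM in DMSO and 50.9 and 49.1 CPM in dTAG-13. The treatments overlapped in both lines. The response was 0.14 (-0.10 to 0.39) in DHX35-dTAG cells and -0.06 (-0.30 to 0.18) in GPATCH1-dTAG cells. Without the library that stood apart the first was 0.28 (0.09 to 0.46; adjusted p = 0.99, edgeR).

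**Figure D2:**
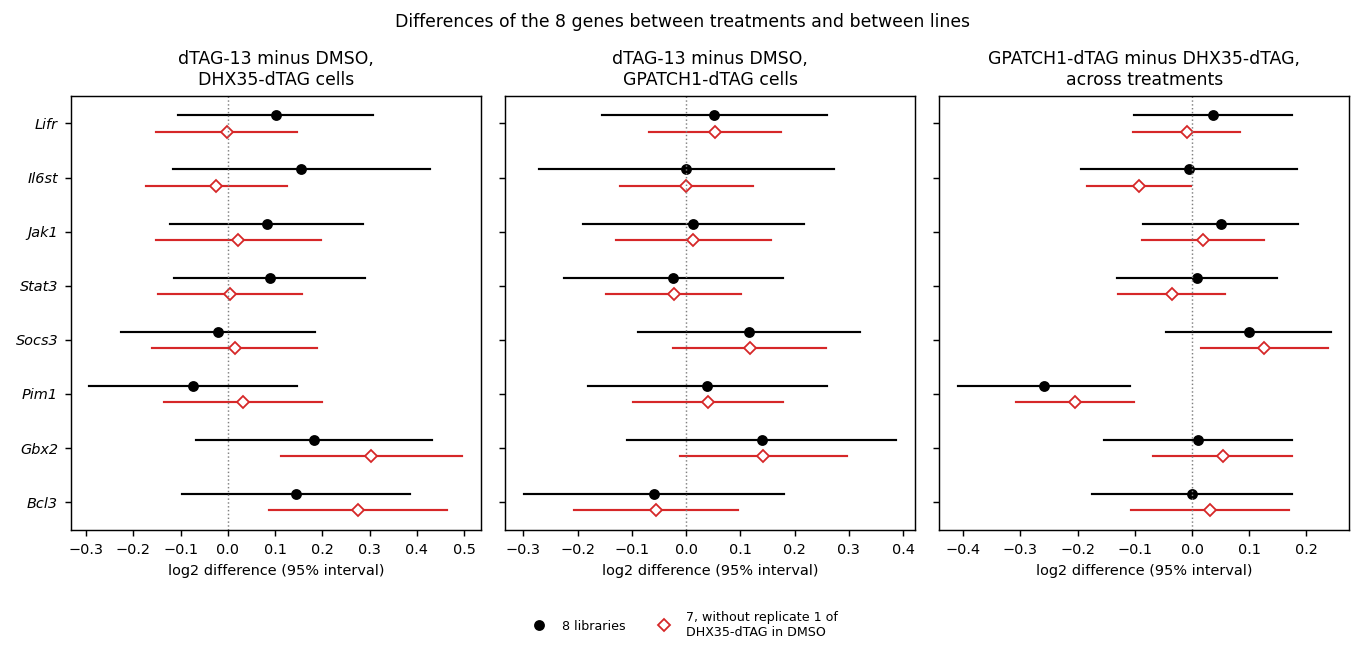
Log2 differences of the 8 genes (horizontal axis) on dTAG-13 in each line and between the lines across treatments, with 95% intervals not adjusted for the number of genes; filled circles use 8 libraries and open diamonds leave out the library that stood apart. With 8 libraries only the interval of Pim1 between the lines, -0.41 to -0.11, lies wholly on 1 side of 0, and the responses of Lifr, Il6st, Jak1 and Stat3 in DHX35-dTAG cells move toward 0 without that library.

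Between treatments, 3 of the 8 genes (Lifr, Socs3 and Gbx2) did not overlap in GPATCH1-dTAG cells, all higher in dTAG-13, against 41.8% of all genes tested. In DHX35-dTAG cells 0 of the 8 did not overlap, against 28.7% of all genes. Between the lines, 0 of the 8 genes passed the test in DMSO, where 0.0916% of all genes did, and 0 of the 8 in dTAG-13, where also 0.0916% did. Across treatments 0 of the 8 passed, against 0.788% of all genes. At the unadjusted threshold, 850 of all genes were higher and 1267 lower in GPATCH1-dTAG cells in DMSO, 571 and 815 in dTAG-13, and 1055 and 1454 across treatments. The median log2 line difference of the 8 genes across treatments was 0.01, against -0.01 over all genes. Leaving out the second DMSO library of DHX35-dTAG cells instead, so that the library that stood apart alone represents that group, gave 4949 genes past the test for dTAG-13 in that line, or 28.8% of those tested, Lifr (0.22) and Il6st (0.37) among them. In the same fit the line difference in DMSO gave 5887 genes (34.3%), with Il6st at 0.29 and Pim1 at -0.40, and the difference between the responses gave 3592 genes (20.9%), with Il6st at -0.37. Members past the test in this fit rest on 1 library. Leaving out a dTAG-13 library of GPATCH1-dTAG cells, the first or the second, changed the response of that line to 0.04 or 0.19 for Socs3, 0.06 or 0.21 for Gbx2 and 0.0038 or 0.07 for Pim1. For Bcl3 it was -0.11 without the first and -0.0086 without the second DMSO library of that line. In the DHX35-dTAG line, the responses without the second DMSO library were 0.16 for Jak1, 0.19 for Stat3, 0.08 for Gbx2 and 0.03 for Bcl3. The line difference of Socs3 across treatments was 0.06 without the first dTAG-13 library of GPATCH1-dTAG cells.

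Levels of different genes were compared per kb of exon, counting every base that lies in an exon of any annotated transcript. Which transcripts these cells used was not determined, and the order could differ with their lengths. The order from the highest was Socs3 at 39.4 ± 2.52 CPM per kb, Pim1 at 33.6 ± 3.76, Gbx2 at 30.4 ± 2.58, Bcl3 at 20.7 ± 1.35, Lifr at 17.7 ± 0.937, Stat3 at 15.4 ± 0.713, Il6st at 13.5 ± 1.10 and Jak1 at 8.60 ± 0.376 CPM per kb (SD, n = 8 libraries). The ranges over the 8 libraries overlapped between neighbours in this order except between Gbx2 and Bcl3 and between Il6st and Jak1. These exon lengths were 2177 to 3362 bases for the inhibitor and the 3 targets and 7227 to 11099 bases for the other 4 genes. On this scale the inhibitor and the targets had higher means than the receptors, the kinase and Stat3. The ranges of Bcl3 and Lifr overlapped. Some counts may be shared with genes on the opposite strand, because the strand setting of the counting is not known. Stat3 overlaps Stat5a, with at most 95 counts in a library, Jak1 overlaps Raver2 (151), Pim1 overlaps Gm26885 (107), Gbx2 overlaps D130058E05Rik (214) and Bcl3 overlaps Gm16174 (20).

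The promoters were searched for TTC and GAA with 3 bases between them, the core of the sites that STAT dimers bind, which reads the same on both strands. All 8 genes had an entry in the RefSeq promoter table (GRCm38.p6), with 10 windows of 300 bases in all. The motif was found in 1 of the 10, that of Socs3, against 8.3% of the 32851 windows in the table. It lies at chr11:117969512-117969520 on the minus strand, 154 bases before the RefSeq start that defines the window, which is inside the longer GENCODE span given above for Socs3. The stretch around it, chr11:117969462-117969570, is shown because Socs3 is the 1 gene of the 8 whose window holds the motif, with the motif in capitals.
Socs3: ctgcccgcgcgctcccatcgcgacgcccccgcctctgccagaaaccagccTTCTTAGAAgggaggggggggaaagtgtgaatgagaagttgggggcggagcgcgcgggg
A match is a description of the letters, and a window without them says nothing of STAT3 binding elsewhere.

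Of 44 other genes of the pathway, 37 passed the expression filter. For dTAG-13, 0 of 37 passed the test (edgeR) in the DHX35-dTAG line and 0 in the GPATCH1-dTAG line, with median log2 differences of 0.11 and -0.05, the first of which was 0.05 without the library that stood apart. Across treatments, 0 of 37 were higher and 1 was lower in GPATCH1-dTAG cells, where 0.452% of all genes were called lower, and the list median was -0.04, or -0.07 without that library. The 1 gene was Socs2, an inhibitor induced by cytokines and growth hormone. It had 48.6, 48.4, 49.1 and 47.9 CPM in DHX35-dTAG cells (DMSO, then dTAG-13) and 37.3, 39.5, 33.0 and 36.9 CPM in GPATCH1-dTAG cells. The 4 libraries of the lines did not overlap, as for 11.6% of all genes tested. Socs2 was lower in GPATCH1-dTAG cells, with a log2 difference of -0.41 (-0.56 to -0.25; adjusted p = 0.029, edgeR), and the adjusted p lay between 0.00030 and 0.16 over the alternatives. It passed without either DMSO library of DHX35-dTAG cells and missed the threshold when any 1 of the other 6 libraries was left out (adjusted p of 0.096 to 0.16, edgeR), with log2 differences of -0.43 to -0.36 over these fits.

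Among the ligands of the family, 3 of 8 passed the filter, and Il6, Il11, Cntf, Clcf1 and Il27 had at most 13 counts in a library. Lif itself, the most abundant of the 3, was at 7.24 CPM, with a line difference of -0.12 (-0.42 to 0.17) that was -0.06 without the first and -0.24 without the second dTAG-13 library of DHX35-dTAG cells. In that line Lif had 8.57 and 8.23 CPM in DMSO and 7.86 and 5.57 CPM in dTAG-13, without overlap, as for 28.7% of all genes tested. This log2 difference of -0.32 (-0.73 to 0.09) did not pass (adjusted p = 0.71, edgeR), and was -0.59 without the first and -0.09 without the second dTAG-13 library. Osm, which encodes oncostatin M, differed by 0.69 (0.08 to 1.31; adjusted p = 1.00, edgeR) on dTAG-13 in GPATCH1-dTAG cells, at 1.75 and 1.5 CPM in DMSO and 2.91 and 2.38 CPM in dTAG-13. Among the other receptor chains, 4 of 5 passed the filter and Osmr had at most 13 counts. Cntfr, the receptor chain of ciliary neurotrophic factor, had 14.6, 17.8, 19.9 and 16.8 CPM in DHX35-dTAG cells and 11.7, 12.5, 12 and 12.5 CPM in GPATCH1-dTAG cells. The lines did not overlap, and the difference of -0.51 (-0.73 to -0.28) had an adjusted p of 0.054 (edgeR), which lay between 0.00030 and 0.24 over the alternatives. Il6ra, the most abundant at 23.8 CPM, had a log2 difference of -0.17 (-0.42 to 0.08) on dTAG-13 in GPATCH1-dTAG cells, or -0.29 and -0.06 without the first and the second dTAG-13 library.

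All 8 other kinases, phosphatases and adaptors passed the filter. Gab1, a docking protein, was the most abundant at 362 CPM and differed by 0.19 (-0.03 to 0.41) on dTAG-13 in DHX35-dTAG cells. This was 0.11 without the library that stood apart and 0.29 without the second DMSO library of that line. Jak3 had a log2 difference of 0.13 on dTAG-13 in GPATCH1-dTAG cells, or 0.21 and 0.06 without the first and the second DMSO library of that line. Between the lines Jak3 differed by -0.20, or by -0.12 without the library that stood apart. Of the 6 other STAT genes, Stat6 was the most abundant at 29.7 CPM. Stat2, which acts in interferon signalling, had 24 and 21.2 CPM in DMSO and 28.4 and 31.4 CPM in dTAG-13 in GPATCH1-dTAG cells, a log2 difference of 0.40 (0.09 to 0.71) that did not pass (adjusted p = 1.00, edgeR). Between the lines the log2 difference of Stat2 was 0.25 (0.02 to 0.48), which did not pass either (adjusted p = 0.29, edgeR).

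Of the 8 other inhibitors, Ptpn2 was the most abundant at 49.3 CPM. Ptpn1 had a log2 difference of 0.20 (-0.04 to 0.45) on dTAG-13 in DHX35-dTAG cells, which was 0.09 without the first and 0.31 without the second dTAG-13 library. Pias3 had one of -0.21 (-0.47 to 0.06) in GPATCH1-dTAG cells. Of 9 other targets of LIF and STAT3, 8 passed the filter and Pramel7 had at most 3 counts. Tfcp2l1, a transcription factor of naive pluripotency, was the most abundant and differed by 0.04 (-0.07 to 0.16) between the lines, or by 0.02 without the library that stood apart. Klf5 differed by -0.21 (-0.36 to -0.05) between the lines, Myc by 0.26 (0.05 to 0.47) on dTAG-13 in DHX35-dTAG cells and Mcl1 by -0.26 (-0.58 to 0.05) on dTAG-13 in GPATCH1-dTAG cells, and none of these passed the test. Without the library that stood apart, 3 of the 40 pathway genes then tested passed across treatments, all lower in GPATCH1-dTAG cells, against 5.95% of all genes in that fit. They were Cntfr (-0.58), Socs2 (-0.42) and Klf5 (-0.26). In that fit 1 pathway gene was higher and 4 were lower in GPATCH1-dTAG cells among the dTAG-13 libraries, against 3.87% of all genes, and these were Stat2 (0.40), Cntfr (-0.59), Socs2 (-0.47), Klf5 (-0.33) and Mcl1 (-0.25).

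**Figure D3:**
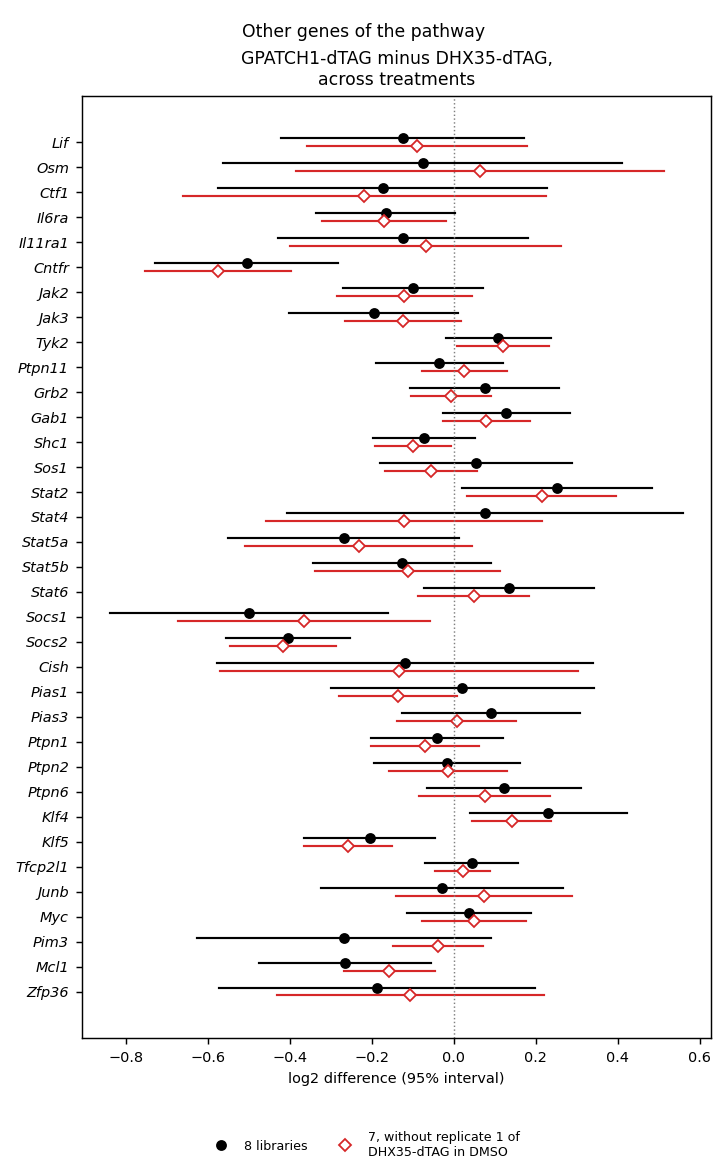
Log2 difference between the lines across treatments (horizontal axis) with its 95% interval for other genes of the pathway that passed the filter, with 8 libraries (filled circles) and without the library that stood apart (open diamonds). Socs2 at -0.41 is the 1 gene past the test with 8 libraries, and Cntfr lies at -0.51.

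The genes whose log2 levels varied most like those of each of the 8 were found by Pearson correlation over the 8 libraries, as a description without a test, since the points share these libraries and 1 of them stands apart. Lifr was most like Golga7 (r = 0.984), Jmjd1c (0.983) and Drosha (0.982), and Il6st most like Mrtfb (0.992), Gm12286 (0.989) and 1700042O10Rik (0.988). Jak1 was most like Swt1 (0.990), Nol8 (0.988) and Dyrk1a (0.983), and Stat3 most like Pxmp4 (0.990), Zdhhc8 (0.984) and Gm37531 (0.978). Socs3 was most like Ddx51 (0.98), Gart (0.971) and Nomo1 (0.966), and Pim1 most like Lrp10 (0.989), Nectin1 (0.984) and Nkx6-2 (0.983). Gbx2 was most like Cdkn2b (0.948), Unc13d (0.948) and Clpp (0.947), and Bcl3 most like Cdo1 (0.955), Cplx1 (0.952) and Gm45855 (0.917). Over the 7 libraries without the one that stood apart, 1 of the 3 genes remained among the 3 most alike for Stat3 (Pxmp4, 0.982) and for Bcl3 (Cplx1, 0.969), and 0 for the other 6. Among the 8 genes themselves, Lifr and Il6st had an r of 0.897 over 8 libraries and 0.386 over 7. Lifr and Jak1 had 0.904 and 0.686, Stat3 and Il6st 0.790 and 0.183, and Gbx2 and Bcl3 0.713 and 0.718. Lifr and Stat3 went from 0.614 to -0.678 and Jak1 and Stat3 from 0.381 to -0.880, while Jak1 and Pim1 had -0.788 and -0.550.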

How the data were processed

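The analysis used the counts that the authors deposited, 1 table for each of 8 libraries, made from rRNA-depleted RNA with a stranded kit. The submitters' processing notes name FastQC 0.11.9, Trim Galore 0.6.6, STAR 2.7.5c and DESeq2 1.26.0 with the mm10 and hg19 builds. The strand setting, the annotation and the counting program are not given in the sources used here. Reads of the human RNA added as a spike-in were not used here. Counts were tested in R 4.3.3 with edgeR 4.0.16 (TMM, filterByExpr on the 4 groups, glmQLFit and glmQLFTest) on all 8 libraries with 1 term per group, or with line and treatment as terms for the line difference across treatments. Benjamini-Hochberg adjustment covered the 16371 genes tested, with a threshold of 0.05. Intervals are the log2 difference ± the t quantile times its standard error, taken as the difference divided by the square root of F, and are not adjusted for multiple genes. The common dispersion of 0.0125 is a coefficient of variation of 11.2% between libraries.

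The members and lists were chosen with earlier results of these data known. Named pathway genes were, in each list, the most abundant gene, the gene with the smallest p for the line difference across treatments and for each dTAG-13 response, and every gene called, with some genes so named left out of the text. The pathway genes called without the library that stood apart were named after their values were seen. Coordinates and exon lengths came from GENCODE M21 and promoters from RefSeq. The alternatives were DESeq2 1.42.0, its size factors, limma-voom with quality weights (limma 3.58.1), no expression filter, a filter of at least 10 counts throughout, the 2 most counted genes removed, a replicate block, a fit of only the 4 libraries of a comparison, and fits that each left out 1 library. Replicates of a group were not duplicates, with a chi-square per gene of 4.93 to 121. The scripts were tested on simulated data.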

Additional observations from a re-analysis of the deposited data

How the results depend on the processing

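Over the 48 comparisons of the 8 genes (8 genes in 6 comparisons), the alternatives gave 752 log2 differences. Of these, 680 kept the sign and the side of the threshold, 7 kept the sign and passed the test where the value with 8 libraries had not, and 65 changed sign. The sign changed under at least 1 alternative in 24 of the 48 comparisons, none of which passed the test with 8 libraries and in which the difference was at most 0.16 in size. Where the settings below moved a value, the cause was not tested, except that fits without a library hold fewer samples.

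The number of genes past the test changed as follows. For dTAG-13 in DHX35-dTAG cells (0 genes), DESeq2 gave 1, no filter 345 and only the 4 libraries 1. For dTAG-13 in GPATCH1-dTAG cells (0 genes), no filter gave 21, limma-voom 35 and only the 4 libraries 127, of which 2 were other pathway genes, Stat2 and Mcl1. For the difference between the responses (0 genes), DESeq2 gave 9 and no filter 140. For the line difference in DMSO (15 genes), DESeq2 gave 47, no filter 986 with 2 pathway genes (Klf4 and Pim3), at least 10 counts 4 and only the 4 libraries 2. For that in dTAG-13 (15 genes), DESeq2 gave 48, no filter 158, at least 10 counts 4, limma-voom 237 with 3 pathway genes (Cntfr, Socs2 and Klf5) and only the 4 libraries 342 with 4 (Cntfr, Stat2, Socs2 and Klf5). Across treatments (129 genes, 1 of the pathway list and 0 of the 8), DESeq2 gave 227 with 2 pathway genes (Cntfr and Socs2), no filter 920 with 4 (Cntfr, Socs2, Klf4 and Mcl1), and limma-voom 757 with 3 (Cntfr, Socs2 and Klf5) and 1 of the 8, Pim1. The DESeq2 alternative changes the test and the size factors together.

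Deviations of same-numbered libraries correlated by 0.037 to 0.230, which is weak but cannot show whether the replicate numbers pair the samples. With the numbers as a replicate block, 2 genes passed for the difference between the responses, and the counts of the other comparisons stayed within 1.5 times. Under the replicate block, Il6st changed sign for dTAG-13 in GPATCH1-dTAG cells (-0.0018), as did Bcl3 between the lines across treatments (0.00090).

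With each library left out in turn, dTAG-13 in DHX35-dTAG cells gave 0 to 4949 genes, 0 to 2 of the 8 and 0 to 13 of the pathway list. In GPATCH1-dTAG cells it gave 0 to 51 genes. The difference between the responses gave 0 to 3592 genes, 0 to 1 of the 8 and 0 to 8 of the list. The line difference gave 4 to 5887 genes in DMSO, with 0 to 2 of the 8 and 0 to 14 of the list, 4 to 660 in dTAG-13, with 0 to 5 of the list, and 27 to 1013 across treatments, with 0 to 1 of the 8 and 0 to 3 of the list. The highest counts came without the second DMSO library of the DHX35-dTAG line for dTAG-13 in that line, the difference between the responses and the line difference in DMSO, and without the first for the others. Socs2 passed across treatments in 2 of the 8 fits that left out 1 library, those without either DMSO library of the DHX35-dTAG line, and not in the other 6, and the same held for Dhx35 and Krt8.

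Other sign changes were small. For dTAG-13 in GPATCH1-dTAG cells, Il6st was -0.0053 with the 2 top genes removed, -0.00042 with at least 10 counts, -0.0022 with limma-voom and -0.0043 with only the 4 libraries, and Gpatch1 was -0.0033 with the 2 top genes removed, -0.0021 with limma-voom and -0.0043 with only the 4 libraries. Gbx2 between the lines in dTAG-13 was 0.0085 with no filter. Across treatments, limma-voom gave -0.0037 for Lifr and -0.025 for Stat3, Il6st was 0.0016 with the top genes removed and 0.012 with no filter, and Bcl3 was 0.0044 with DESeq2, 0.0043 with its size factors, 0.0066 with the top genes removed, 0.019 with no filter and 0.036 with limma-voom.

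Leaving out a library changed further signs, with these ranges. For dTAG-13 in DHX35-dTAG cells, Lifr ranged from -0.0028 to 0.22, Il6st from -0.025 to 0.37, Socs3 from -0.089 to 0.049 and Pim1 from -0.16 to 0.032. In GPATCH1-dTAG cells, Il6st ranged from -0.040 to 0.037, Jak1 from -0.011 to 0.038, Stat3 from -0.053 to 0.0052 and Gpatch1 from -0.041 to 0.049. For the difference between the responses, Lifr ranged from -0.17 to 0.056, Il6st from -0.37 to 0.025 and Gbx2 from -0.16 to 0.061. In DMSO, the line difference ranged from -0.043 to 0.19 for Lifr, -0.11 to 0.29 for Il6st, -0.019 to 0.17 for Stat3, -0.072 to 0.15 for Gbx2 and -0.012 to 0.23 for Bcl3. In dTAG-13 it ranged from -0.021 to 0.047 for Lifr, -0.044 to 0.076 for Jak1, -0.099 to 0.0047 for Stat3 and -0.095 to 0.077 for Gbx2. Across treatments it ranged from -0.0092 to 0.082 for Lifr, -0.093 to 0.065 for Il6st, -0.036 to 0.044 for Stat3, -0.035 to 0.054 for Gbx2 and -0.065 to 0.036 for Bcl3.

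Each group held 2 libraries, which limits how small a difference could pass. The line difference is a difference between a pair of edited lines, and Pim1 passed in 2 of the alternatives across treatments and not with all 8 libraries in edgeR. The 8 genes had at least 595 counts in every library, whereas 5 ligands had at most 13 and did not pass the expression filter with 8 libraries.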
